A study of Mus musculus with 18 samples.

Results

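Group 1 innate lymphocytes were compared between organs and cell types: type 1 innate lymphoid cells (ILC1s) of the spleen against natural killer (NK) cells of the liver, both from control mice. The comparison holds 6 libraries, 3 of each group, of the 18 libraries in 6 groups that make up the series, chosen by their labels alone. Spleen ILC1s carried more RNA of the chemokine receptor Cxcr6, the receptor chain Cd160, the T cell receptor gamma constant genes and the transcription factor gene Zfp683. They carried less RNA of the killer proteins Gzma and Prf1, of Klrg1 and of 4 inhibitory or activating Ly49 receptors. Of 11890 genes tested, 92 (0.774%) passed the threshold, 65 (0.547%) higher and 27 (0.227%) lower in spleen ILC1s. Liver ILC1s share the organ with the NK cells and the cell type with the spleen ILC1s. Their libraries lay beyond the NK libraries on the spleen ILC1 side for 62 of the 65 and for all 27. Over all 11890 genes tested this held for 2037 (17.1%). The NK libraries enter both comparisons, so this position is a description and no independent test.

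ILC1s and NK cells both make interferon-γ and both carry the surface receptors NKp46 and NK1.1. ILC1s stay in their tissue and depend on T-bet, the product of Tbx21, while conventional NK cells circulate, also use Eomes, and store granzymes and perforin with which they kill target cells. Mouse NK cells further carry Ly49 receptors, lectin-like proteins of the Klra gene cluster, many of which read class I MHC molecules on other cells.

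All animals in the comparison were C57BL/6 mice, 8 weeks old, of genotype Ncr1-Cre, in which Cre recombinase is expressed from the gene of NKp46. The controls thus carry Cre as well, and no RARα403, the truncated retinoic acid receptor of the series' other genotype. The 3 spleen ILC1 control, 3 liver NK control and, beside them, 3 liver ILC1 control libraries each came from 200 sorted cells. Both populations were sorted as cells with NK1.1 and NKp46 and without CD3. Sorted ILC1s further carried CD49a and the interleukin-7 receptor and little CD49b, and sorted NK cells carried CD49b and no CD49a. Read counts per gene came from SMART-seq, a method that copies whole transcripts of very few cells into cDNA and amplifies them. No label tells which libraries came from the same mouse, so p-values measure the spread between these libraries, which may be partly technical. Organ and cell type differ together in the comparison, and an effect of one cannot be told apart from the other without the liver ILC1 values. In RNA of a sorted pool, fewer cells with a transcript and less of it per cell cannot be told apart.

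Library totals were 8214734, 7093353 and 5445189 counts for spleen ILC1s 1, 2 and 3, 6421894, 8995720 and 5727907 for the NK cells of the liver, and 7184888, 3452279 and 4549841 for liver ILC1s. A count of 3 in a library, used as the floor, corresponded to 0.338 to 0.865 CPM, the counts per library divided by its total and rescaled. Mean correlations with the other libraries of the same group, across genes, were 0.834 to 0.888. Both sexes were present: counts of Xist, which the inactive X chromosome makes, were 596 to 1404 in library 3 of each of these groups and at most 28 in the others. Mitochondrial genes held 0.339 to 1.46% of the counts, the most in spleen ILC1 library 3. Levels below are in log2 CPM, computed with 2 prior counts, so that 0 counts lie at -1.66, and differences are log2 fold changes of spleen ILC1s over liver NK cells with their standard error (SE).

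All 92 genes past an adjusted p of 0.05 (edgeR quasi-likelihood test, Benjamini-Hochberg) had 3 spleen ILC1 libraries that did not overlap the 3 NK libraries, a separation that 2050 of the 11890 genes (17.2%) showed. At an unadjusted p under 0.05 there were 1182 genes (9.94%). The median difference over all genes tested was 0.01. The size of the differences was unequal by direction: the median was 4.47 among the 65 higher genes and 2.33, in absolute value, among the 27 lower ones. Among the higher genes, 60 were protein coding and 5 were constant genes of the T cell receptor, and 11 had 0 counts in all 3 NK libraries. The count of 92 rested on few libraries: without NK library 1, 2 or 3 it was 20, 29 and 20, without spleen ILC1 library 2 or 3 it was 49 and 51, and without spleen ILC1 library 1 it was 95. In all 6 of these fits 15 genes stayed past the threshold: Cxcr6, Cxcr3, Gpr183, Cd160, Cd3e, Tcrg-C1, Tcrg-C2, Tcrg-C4, Adgrg5, Ckb and Sept8 among the higher, and Gzma, Prf1, Klrg1 and Klra9 among the lower. DESeq2 called all 92, among 498.

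**Figure D1:**
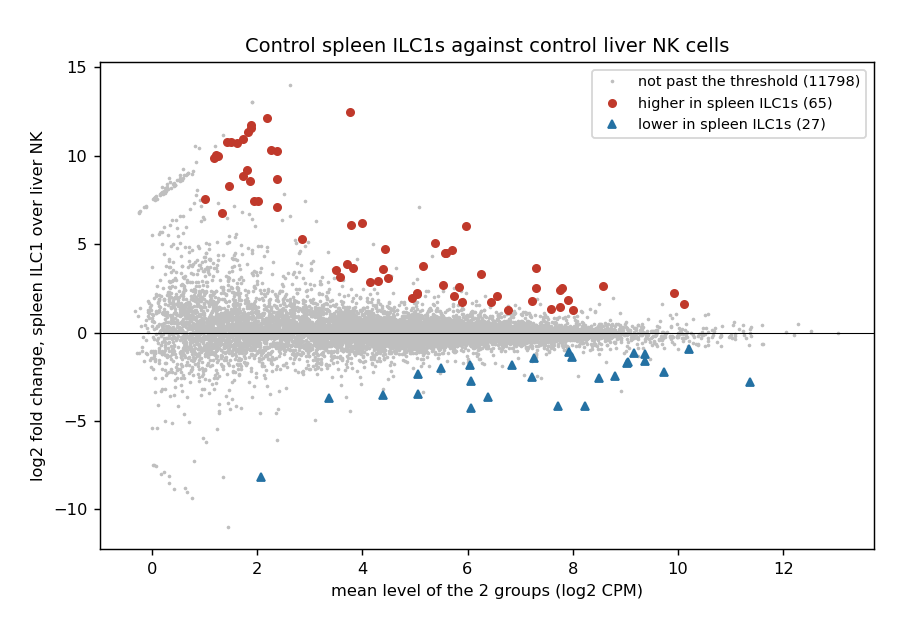
Log2 fold change of control spleen ILC1s over control liver NK cells against the mean level of the 2 groups in log2 CPM, 1 point per gene of 11890. Red circles are the 65 genes higher in spleen ILC1s, blue triangles the 27 lower ones, at an adjusted p under 0.05, and grey points the others; the higher genes reach further from 0 and include many with almost no counts in NK cells.

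Chemokine and lipid receptors that guide cells into tissue were among the clearest differences. Cxcr6 (ENSMUSG00000048521, mm10 chromosome 9, 123806475 to 123811760), the receptor for the membrane-bound chemokine CXCL16, stood at 10.27, 8.08 and 8.50 in spleen ILC1s, at -1.66, -0.89 and -1.66 in NK cells and at 10.10, 10.10 and 10.26 in liver ILC1s. The NK libraries held 2 Cxcr6 counts in all, which gave a ratio of 6983 with a counting interval of 1933 to 57662 (95%, counting error only) and an adjusted p of 0.00375. Cxcr3 (chromosome X, 101731535 to 101734269), the receptor for the interferon-induced chemokines CXCL9 and CXCL10, stood at 8.99, 9.14 and 8.77 in spleen ILC1s, 6.47, 6.93 and 6.23 in NK cells and 9.27, 9.10 and 9.47 in liver ILC1s. Cxcr6 was thus nearly absent from NK cells, while Cxcr3 was present in both cell types and higher by 2.42 (SE 0.23, adjusted p = 0.00576). Gpr183, a receptor for oxysterols, was at 6.53, 6.87 and 7.04 against 2.94, 1.97 and 1.21, with 6.42, 6.09 and 3.91 in liver ILC1s. Gpr18 differed by 1.25 (SE 0.19, adjusted p = 0.0277). Gpr183 and Gpr18 were highest in spleen ILC1 library 3, which held the most B cell transcripts. A part of B cell RNA in their levels was not tested. Cxcr6, Cxcr3, Gpr183 and Gpr18 were 4 of 15 tested members of a list of 20 chemokine and related receptors, with 0 lower. Among the other 11, Ccr2 was at -0.86 (adjusted p = 0.055) and Cxcr4, which holds lymphocytes in bone marrow, at -0.10. The list's median was 1.40, and leaving out any 1 library left 3 or 4 members past the threshold.

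The 250 bases before the transcription start (RefSeq, GRCm38.p6, the build also called mm10) of Cxcr6 (chr9:123806227-123806476, plus strand), Cxcr3 (chrX:101734148-101734397, minus strand) and Gzma (chr13:113100982-113101231, minus strand) are given here, as start regions of higher genes and of a lower gene, because all of them hold the letters TGTGGT on the other strand, the core that RUNX factors are known to bind. Capitals mark its reverse complement, ACCACA, 10, 110 and 50 bases before the start.
Cxcr6: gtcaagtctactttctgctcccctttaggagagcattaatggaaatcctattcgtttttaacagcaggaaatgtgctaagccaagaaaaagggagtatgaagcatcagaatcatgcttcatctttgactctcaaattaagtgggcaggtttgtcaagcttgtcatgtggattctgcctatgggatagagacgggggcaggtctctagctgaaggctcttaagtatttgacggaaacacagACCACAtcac
Cxcr3: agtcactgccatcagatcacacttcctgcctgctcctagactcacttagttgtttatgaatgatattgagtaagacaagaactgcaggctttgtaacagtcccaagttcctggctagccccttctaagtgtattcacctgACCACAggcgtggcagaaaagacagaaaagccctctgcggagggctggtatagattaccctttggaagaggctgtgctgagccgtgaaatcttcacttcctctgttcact
Gzma: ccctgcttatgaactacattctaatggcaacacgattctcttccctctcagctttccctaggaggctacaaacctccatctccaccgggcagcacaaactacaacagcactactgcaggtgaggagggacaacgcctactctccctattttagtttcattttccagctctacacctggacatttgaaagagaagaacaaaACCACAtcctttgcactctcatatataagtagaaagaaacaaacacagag
The 6 letters, on either strand, were found in 4614 of 32851 promoters of this length (14%), in 1251 of 10982 promoters of genes tested (11.4%), in 12 of 64 promoters of 46 matched higher genes (18.8%) and in 2 of 21 promoters of 19 matched lower genes (9.52%). The 3 promoters were chosen after the values were seen, and a match is a description of these letters, not a site or a cause.

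Of a list of 29 genes that mark ILC1s, 23 were higher, 0 were lower and 6 did not pass, with all 29 differences above 0 and a median of 6.20, or 6.06 with genes absent from NK cells set at their lower bound. This list was written with earlier values of liver ILC1s and NK cells from the same series known, so that its direction is not independent evidence. Among the surface and signalling members, Cd160, a receptor of the immunoglobulin family that binds HVEM, was at 10.31, 9.76 and 9.56 in spleen ILC1s, 7.30, 7.10 and 7.44 in NK cells and 10.33, 10.11 and 10.37 in liver ILC1s. Its difference was 2.65 (SE 0.24, adjusted p = 0.00419), and the 2 kinds of ILC1 overlapped. Cd7 was higher by 2.21 (SE 0.25), Cd226, an activating adhesion receptor, by 1.80 (SE 0.30) and Socs2, which restrains cytokine signalling, by 3.77 (SE 0.50).

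Several members were all but undetected in NK cells. Cd200r2, a receptor-like gene of the Cd200r family, was at 7.20, 5.44 and 5.5 in spleen ILC1s against 0 counts in every NK library, which makes it at least 174-fold higher at a floor of 3 counts per library (adjusted p = 0.0131). P2rx7, an ion channel opened by extracellular ATP, was at least 121-fold higher on the same floor, Ccdc136 at least 68.6-fold and Sept8, a septin of the cytoskeleton, at least 66.8-fold. Mmp9, a secreted matrix protease, and Ckb, the brain type of creatine kinase, had 1 count each in the NK libraries and ratios of 1953 (counting interval 350.2 to 77192) and 1679 (301 to 66336). Zfp683 (chromosome 4, 134053838 to 134058996), the gene of the residency factor Hobit, was at 6.5, 4.79 and 5.67 against 0.65, -1.66 and -1.66, with 7.16, 5.47 and 7.91 in liver ILC1s. Its adjusted p was 0.0327 and rose to as much as 0.154 on leaving out 1 library. The membrane proteins Tmem176a and Tmem176b differed by 6.20 (SE 1.02) and 5.08 (SE 0.70), with adjusted p-values of 0.0371 and 0.018.

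In each of these genes the liver ILC1 libraries lay on the side of the spleen ILC1s, above every NK library. The list was written with the liver values known, so that this position is partly set by its choice. The gate chose ILC1s by CD49a and the interleukin-7 receptor, so the higher Itga1 (6.06, SE 0.87) and Il7r (3.64, SE 0.38) are set by that sort and are not a result. Members that did not pass were Adam19, Cd200r1 (6.33, adjusted p = 0.0709), Il21r, Cd5, Xcl1 (1.88) and Cd69 (0.17, adjusted p = 0.964). Leaving out 1 library took the 23 to 9, 9 and 8 without NK library 1, 2 or 3 and to 16, 13 and 16 without spleen ILC1 library 1, 2 or 3. Spleen ILC1 library 1 was the highest of its group for 23 of the 29 genes, against 4214 of all 11890.

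**Figure D2:**
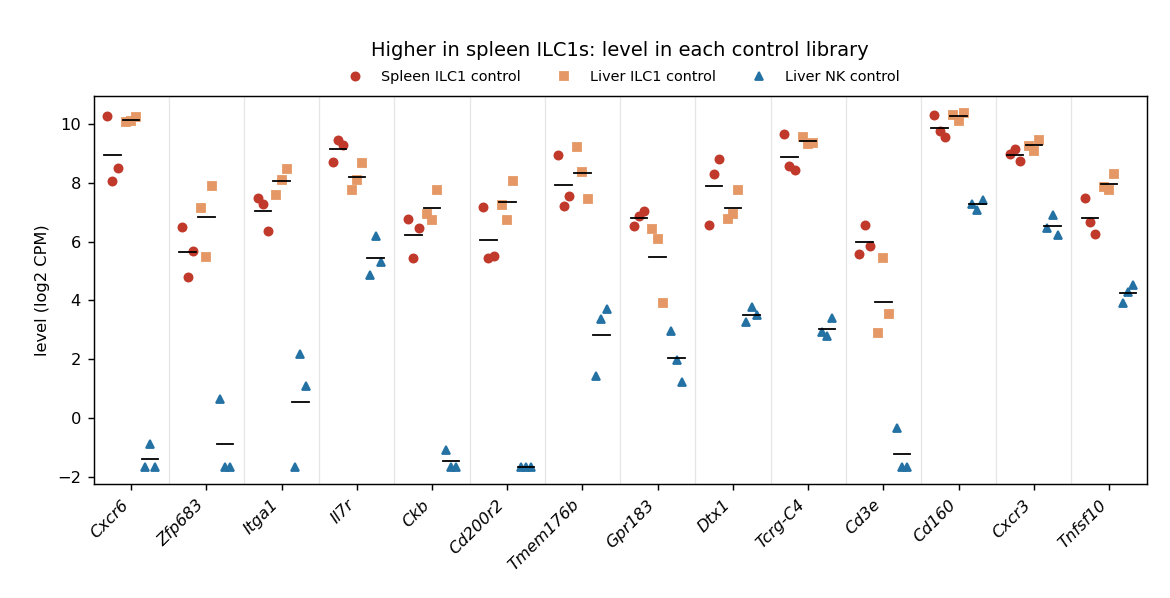
Level of ILC1-associated genes in log2 CPM in each control library of spleen ILC1s (red circles), liver ILC1s (orange squares) and liver NK cells (blue triangles), with horizontal bars at the group means. For Cxcr6, Cd160, Cxcr3 and Zfp683, spleen and liver ILC1 libraries lie together above the NK libraries.

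Cytokine genes differed in few members. Il2, the growth factor of T cells, was at 5.0, 3.05 and 3.53 in spleen ILC1s and had 3 counts over all NK libraries, a ratio of 125 (counting interval 42.6 to 611, adjusted p = 0.0406). Ltb, a chain of the lymphotoxin that organises lymphoid tissue, was at 9.38, 8.81 and 9.18 against 5.75, 7.47 and 6.17, higher by 2.5 (SE 0.43, adjusted p = 0.0466), with 9.11, 9.38 and 9.16 in liver ILC1s. Both counted among 15 tested of 22 cytokine and chemokine genes, with 0 lower. Ifng, the signature cytokine of these cells, was at 8.12, 7.03 and 7.30 against 7.04, 7.48 and 5.90 and did not pass (0.63, adjusted p = 0.748). Without NK library 2 the list had 1 call, and without any other single library 0.

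Among 20 tested of 27 genes of the TNF superfamily, Ltb and Tnfsf10 were higher and 0 lower. Tnfsf10, which encodes the death ligand TRAIL, was at 7.47, 6.69 and 6.26 in spleen ILC1s, 3.93, 4.29 and 4.52 in NK cells and 7.85, 7.75 and 8.31 in liver ILC1s. It differed by 2.67 (SE 0.37, adjusted p = 0.0182), all 3 libraries on each side apart. The number of calls in this list became 1, 2 and 0 without NK library 1, 2 or 3 and 2, 0 and 1 without spleen ILC1 library 1, 2 or 3. Of 34 tested cytokine receptor and signalling genes, 2 were higher (Socs2 and Il7r) and 1 lower. Without NK library 1, 2 or 3 the count of 3 became 1, 1 and 0, and without spleen ILC1 library 1, 2 or 3 it became 3, 1 and 2. The lower gene was Ifngr1, a chain of the receptor for interferon-γ, at 9.82, 9.80 and 9.58 against 10.49, 10.69 and 10.85 (-0.93, SE 0.16, adjusted p = 0.0386). The checkpoint and costimulatory list had 4 of 19 tested members higher (Cd7, Cd160, Cd226 and Cd200r2), 0 lower and a median of 0.81, and had 1 call without any 1 of the NK libraries.

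Of 16 tested of 20 genes of killing, 3 were lower, 1 was higher and 12 did not pass. Gzma (chromosome 13, 113093825 to 113100981), the granzyme A protease of cytotoxic granules, was at 10.50, 9.57 and 9.81 in spleen ILC1s, 12.87, 12.43 and 13.05 in NK cells and 9.88, 9.32 and 10.32 in liver ILC1s. Its difference was -2.77 (SE 0.28, adjusted p = 0.00656), and every ILC1 library of either organ was below every NK library. Prf1 (chromosome 10, 61297833 to 61304680), which encodes the pore-forming protein perforin, was at 8.70, 8.81 and 8.28 against 10.84, 10.68 and 11.09, lower by 2.26 on the log2 scale (-2.26, SE 0.19, adjusted p = 0.00375). Serpinb9, an inhibitor of granzyme B that protects the killer cell, differed by -1.73 (SE 0.23). The higher gene was Tnfsf10, and the list's median was -0.66. Gzmb, granzyme B, was at 10.73, 5.74 and 6.61 against 10.67, 9.83 and 10.46 and did not pass (-1.07, adjusted p = 0.879). Spleen ILC1 library 1 was above all NK libraries and libraries 2 and 3 were below them, and without library 1 the Gzmb difference was -4.12 (adjusted p = 0.0149). Liver ILC1s held Gzmb at 10.82, 9.18 and 10.41. Gzmc was likewise at 5.87 in spleen ILC1 library 1 and at -1.66 and 1.40 in libraries 2 and 3, against 0.65, 0.74 and 1.76 in NK cells and 6.44, 5.23 and 6.38 in liver ILC1s. The number of cytotoxic genes past the threshold was 2 without any 1 of the NK libraries or spleen ILC1 library 2, and 5 without spleen ILC1 library 1 or 3.

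Ly49 receptors were lower in spleen ILC1s than in NK cells in 4 of 10 tested genes of a list of 12, with 0 higher and a median of -2.22. The genes are near-identical copies, and the labels do not say how reads shared among them were counted, so the level of each is uncertain. Klra8 (ENSMUSG00000089727, chromosome 6, 130115226 to 130129898), which encodes the activating receptor Ly49H, was at 5.16, 7.29 and 5.48 in spleen ILC1s, 10.54, 10.39 and 10.52 in NK cells and -0.75, -1.66 and 0.71 in liver ILC1s. It differed from NK cells by -4.18 (SE 0.55, adjusted p = 0.0164). Klra4, encoding the activating receptor Ly49D, was at 3.52, 6.44 and 6.29 against 10.02, 9.81 and 10.28, with 0.65, -1.66 and -1.66 in liver ILC1s. For Klra4 and Klra8 the spleen ILC1s therefore lay between liver ILC1s and NK cells. By their means, 8 of the 10 Ly49 genes had this order, liver ILC1s lowest and NK cells highest, against 2498 of all 11890 genes. Genes with the spleen ILC1s between in the reverse order are not in these counts. Klra9 went differently: it was at 7.34, 7.47 and 6.88 in spleen ILC1s and 8.58, 7.20 and 8.46 in liver ILC1s, both below the NK cells at 9.59, 9.41 and 10.30. Klra10 was lower by 3.49 on the log2 scale (-3.49, SE 0.50, adjusted p = 0.02). The count of 4 Ly49 genes became 1 without any 1 of the NK libraries, 5, 3 and 2 without spleen ILC1 library 1, 2 or 3.

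Of the 29 tested in a list of 30 genes of NK identity and maturation, 9 were lower and 0 higher, with a median of -2.17. This list too was written with earlier values of these liver cells known and is not independent evidence of direction. Klrg1 (chromosome 6, 122270596 to 122282882), an inhibitory receptor of mature NK cells, was at 4.22, 4.49 and 4.98 in spleen ILC1s, 8.61, 7.76 and 8.28 in NK cells and 4.26, 3.70 and 4.04 in liver ILC1s. It differed by -3.66 (SE 0.31, adjusted p = 0.00375), with no overlap of either ILC1 group with the NK cells. Cma1, a mast cell chymase gene, was at 2.56, 4.0 and 4.92 against 8.15, 7.86 and 8.89 (-4.27, SE 0.59, adjusted p = 0.018). The other 7 were Gzma, Prf1, Serpinb9, Klra4, Klra8, Klra9 and Irf8. Members named for NK identity that did not pass included Eomes, Zeb2, Itgam (-2.48, adjusted p = 0.0856), S1pr5 (-2.48, adjusted p = 0.1) and Itga2 (-1.71, adjusted p = 0.113), of which Itga2 encodes CD49b, a gate marker. The count of 9 was 4, 5 and 4 without NK library 1, 2 or 3 and 11, 7 and 8 without spleen ILC1 library 1, 2 or 3.

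Eomes (chromosome 9, 118478212 to 118486132), the T-box factor of NK cells, spread widely. Its levels were 3.29, 7.69 and 5.97 in spleen ILC1s, 9.08, 9.13 and 9.20 in NK cells and 2.89, 4.95 and 1.33 in liver ILC1s, and the difference from NK cells was -2.59 (SE 0.83, adjusted p = 0.274). The spleen libraries did not overlap the NK libraries but spread over more than 4 units of log2. Zeb2, a transcription factor of NK maturation, had the same order, 3.40, 6.90 and 6.42 in spleen ILC1s against 8.34, 8.42 and 8.92 (-2.41, adjusted p = 0.195). S1pr5, a receptor that lets NK cells leave tissue, was at 5.30, 8.00 and 6.72 against 9.52, 9.30 and 9.77. Spleen ILC1 library 1 was the lowest of its group for 21 of the 29 genes, against 4657 of all 11890. The spleen ILC1 mean lay above that of liver ILC1s and below that of NK cells for 23 of the 29, against 2498 of all 11890. The list was written with the liver values known, so that this order is partly set by its choice. Leaving out spleen ILC1 library 1 gave an adjusted p of 0.125 for Eomes and 0.0339 for Zeb2.

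**Figure D3:**
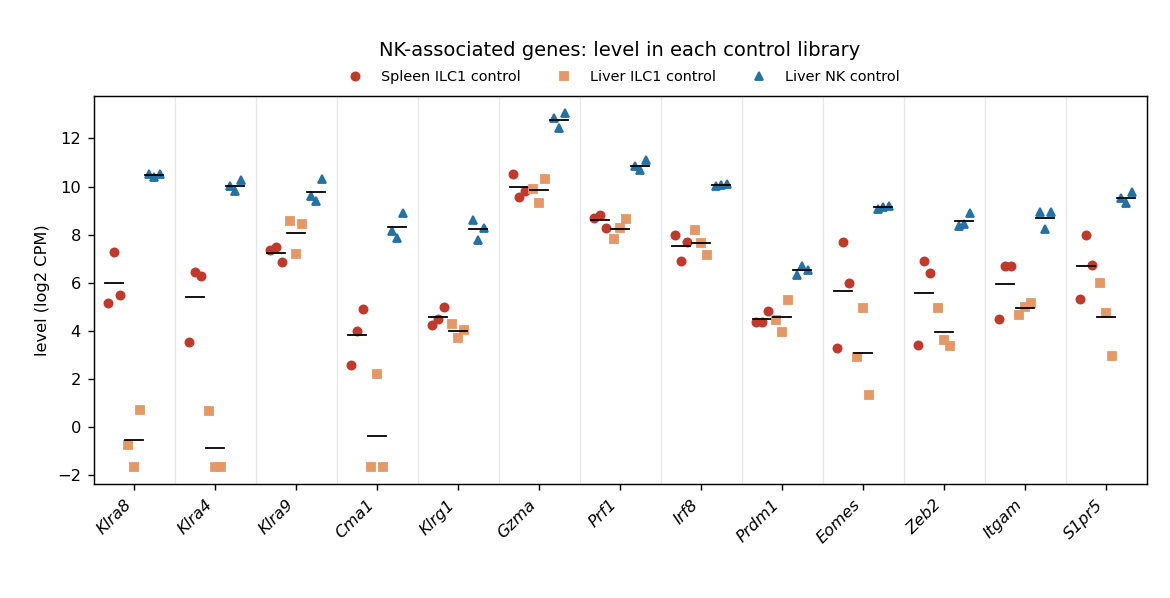
Level of NK-associated genes in log2 CPM in each control library of spleen ILC1s (red circles), liver ILC1s (orange squares) and liver NK cells (blue triangles), with horizontal bars at the group means. The NK libraries lie above both kinds of ILC1, and for Klra8, Klra4, Cma1 and Eomes the spleen ILC1s lie between the others by their means.

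Transcription factors differed in 4 of 40 tested of 45. Id3, an inhibitor of E proteins, was at 4.59, 4.25 and 6.59 in spleen ILC1s, 0.33, 0.83 and 0.49 in NK cells and 5.21, 3.02 and 3.73 in liver ILC1s (5.29, SE 0.79, adjusted p = 0.0243), and Zfp683 is given above. Irf8 was at 7.99, 6.90 and 7.71 against 10.03, 10.06 and 10.11, lower by 2.45 on the log2 scale (-2.45, SE 0.27, adjusted p = 0.00798). Prdm1, which encodes Blimp-1, was at 4.34, 4.34 and 4.81 against 6.31, 6.68 and 6.53, with 4.46, 3.96 and 5.29 in liver ILC1s (-2.00, SE 0.27, adjusted p = 0.0177). Tbx21 stood at 9.30, 9.95 and 9.55 in spleen ILC1s and 10.23, 10.02 and 10.25 in NK cells without passing (-0.53, adjusted p = 0.35). Ikzf2, which encodes Helios, differed by 1.92 (adjusted p = 0.0595) and Tcf7 by 0.90 (adjusted p = 0.492). The count of 4 became 0, 1 and 0 without NK library 1, 2 or 3, 2 without spleen ILC1 library 2 or 3, and 4 without spleen ILC1 library 1.

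Genes of residency and egress gave 3 higher (Itga1, Zfp683 and Cxcr6) and 1 lower (Prdm1) of 22, with a median of -0.15. The count of 4 became 2, 1 and 1 without NK library 1, 2 or 3 and 2, 2 and 3 without spleen ILC1 library 1, 2 or 3. S1pr1, the receptor by which lymphocytes leave organs, was at 5.88, 8.39 and 8.88 in spleen ILC1s and 7.43, 7.93 and 7.43 in NK cells, and Klf2, which drives its transcription, at 6.62, 8.62 and 8.36 against 8.68, 8.75 and 9.15. Neither passed (adjusted p = 0.889 and 0.666), and spleen library 1 was again the lowest of its group for both. Liver ILC1s held S1pr1 at 4.20, 6.28 and 4.48. Among 15 tested of 19 integrin subunits only the gated Itga1 passed, and it missed the threshold without NK library 2 or 3 or spleen ILC1 library 1 or 2. Of 16 lectin-like receptors of the NKG2 and NKR-P1 families, Klrg1 and Klri2 (-1.64, SE 0.26) were lower and Clec2i (1.44, SE 0.25) higher, with Ncr1, the gene of NKp46, at -0.29 (adjusted p = 0.54). The count of 3 became 1 without any 1 of the NK libraries and 3, 1 and 2 without spleen ILC1 library 1, 2 or 3. Cd247, the CD3 zeta chain that couples NKp46 to signalling, was at 6.30, 6.98 and 6.26 against 8.17, 7.92 and 7.96 (-1.45, SE 0.24, adjusted p = 0.0371), 1 lower and 0 higher of 21 activating signalling genes. Leaving out any 1 library except spleen ILC1 library 2 ended that call.

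Both cell types had been sorted without surface CD3. Of a list of 18 T cell genes, 13 were tested, 7 were higher, 0 lower and 6 did not pass, with a median of 4.36. Tcrg-C4, a constant gene of the gamma chain, was at 9.67, 8.57 and 8.44 in spleen ILC1s, 2.91, 2.77 and 3.41 in NK cells and 9.57, 9.33 and 9.37 in liver ILC1s. Its difference of 6.02 (SE 0.43, adjusted p = 0.00292) had the smallest adjusted p of the list, and the 2 kinds of ILC1 overlapped. Tcrg-C2 was at least 79.0-fold higher, and Tcrg-C1 had 1 count in NK cells against 5.93, 4.87 and 4.59 in spleen ILC1s. The constant genes are close copies, so the split of reads among them is uncertain. Cd3e was at 5.58, 6.58 and 5.85 with 3 counts in NK cells (ratio 461, counting interval 157 to 2237), and 2.89, 5.44 and 3.53 in liver ILC1s. Cd3d was higher by 3.86 (SE 0.56), Trac by 3.11 (SE 0.43) and Trbc2 by 1.83. Trdc, the delta constant gene, did not pass, at 92.0, 161 and 67.4 CPM in spleen ILC1s and 106, 166 and 125 in NK cells. Among markers of T cells and their subsets, Cd4 was at 0, 81.8 and 39.3 CPM in spleen ILC1s and at 0, 0 and 6.17 in NK cells. Cd6 was at 0, 19 and 8.74 CPM, Cd8a at 0, 0 and 13.7 and Cd8b1 at 2.31, 0 and 10.2 in spleen ILC1s, and all of these had 0 counts in NK cells. The list summed to 1976 to 2962 CPM in spleen ILC1s, 919 to 979 in NK cells and 2696 to 2859 in liver ILC1s. A part of T cells in these values was not tested. Without NK library 1, 2 or 3 the list had 4, 4 and 5 calls and without spleen ILC1 library 1, 2 or 3 it had 7, 4 and 5.

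**Figure D4:**
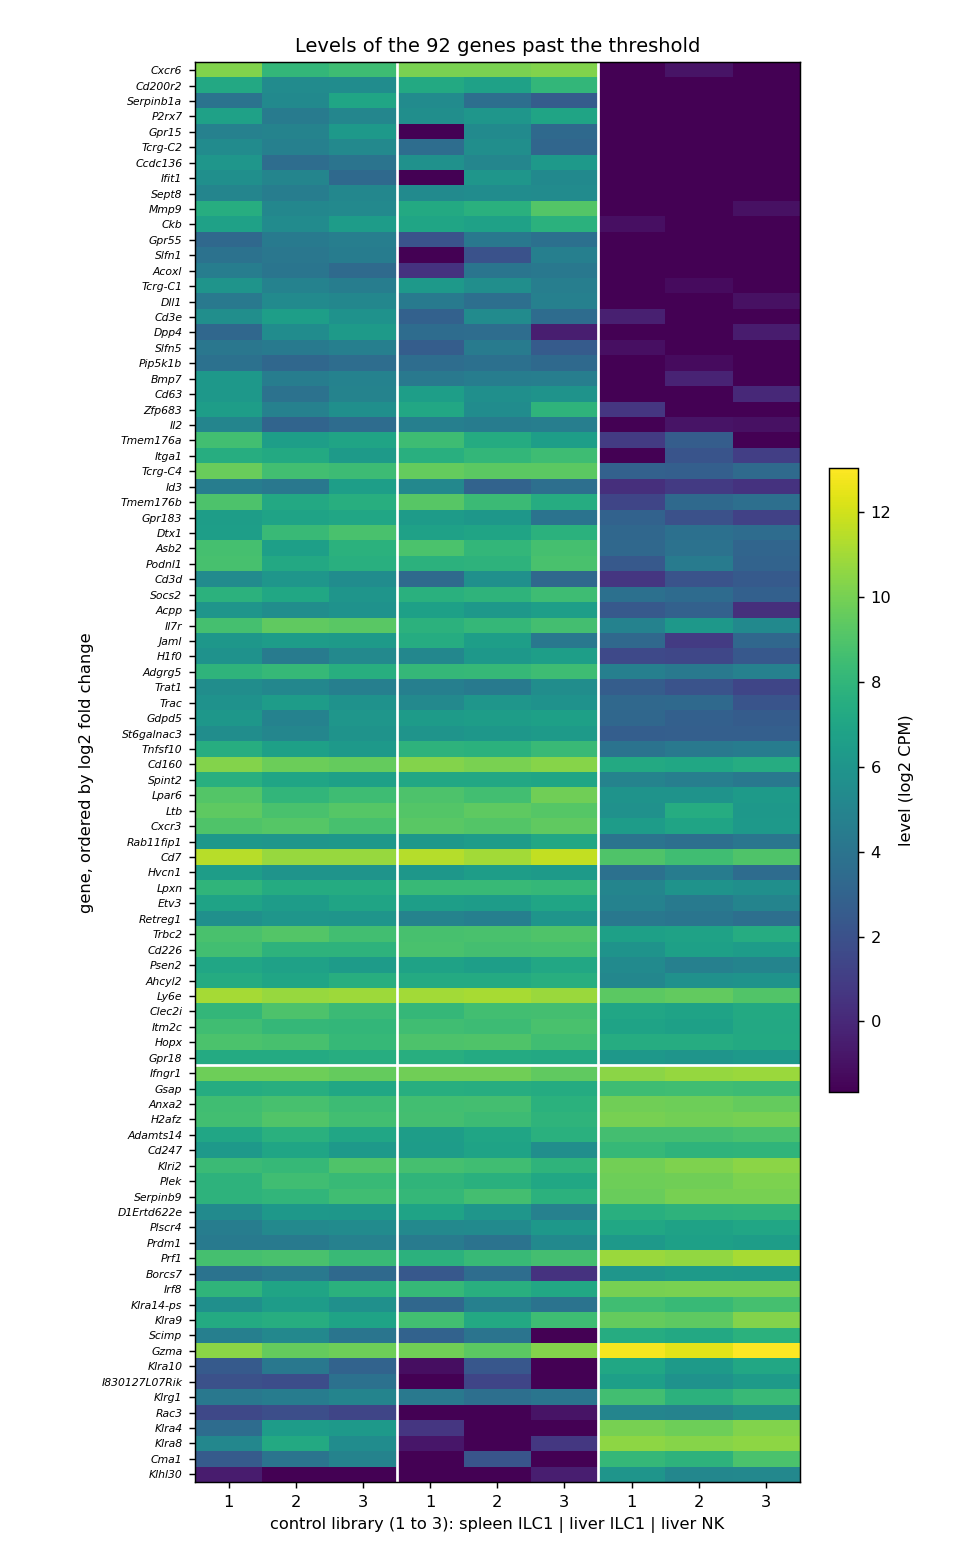
Level of the 92 genes past the threshold in log2 CPM (colour) in the 9 control libraries (columns: spleen ILC1, liver ILC1 and liver NK, libraries 1 to 3 of each), with genes (rows) ordered by the log2 fold change of spleen ILC1s over NK cells and a white line between higher and lower genes. The liver ILC1 columns are nearer in colour to the spleen ILC1 columns than to the NK columns, and Klra8, Klra4 and Rac3 are lower in liver than in spleen ILC1s.

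In the Notch pathway, by which neighbouring cells signal through contact, 2 of 12 tested genes were higher and 0 lower. Dll1, a ligand, was at 4.30, 5.35 and 5.13 with 1 count in NK cells and at 4.40, 3.73 and 4.75 in liver ILC1s. Dtx1, a ubiquitin ligase and Notch target, was at 6.57, 8.32 and 8.82 against 3.26, 3.79 and 3.51, with 6.78, 6.95 and 7.75 in liver ILC1s (4.68, SE 0.56, adjusted p = 0.0113). Notch1 and Notch2 were at -0.17 and 0.03 and did not pass. Of 11 tested of 24 retinoid genes, the series' own theme, Asb2, a ubiquitin ligase component that retinoic acid induces in leukaemia cells, was higher at 8.73, 6.62 and 7.73 against 3.31, 3.88 and 3.11 (4.51, SE 0.56, adjusted p = 0.0127). Liver ILC1s held it at 8.89, 8.07 and 8.73. Rara, the gene of the retinoic acid receptor α, was at 5.21, 5.57 and 5.42 against 4.71, 5.16 and 4.75 (0.54, adjusted p = 0.653), and Rarg at -0.62 did not pass. Rarb was too low to test. Both Notch calls were lost without NK library 1, and the list had 1 without NK library 2 or 3, while Asb2 missed the threshold without any 1 of the NK libraries.

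The 3 higher genes for which liver ILC1s overlapped the NK range were Gpr15, Slfn1 and Ifit1, each with 0 counts in liver ILC1 library 1 as in all NK libraries. Gpr15, a homing receptor, was at 4.78, 4.89 and 6.32 in spleen ILC1s, at least 101-fold above NK cells, and at -1.66, 5.39 and 3.35 in liver ILC1s. Slfn1, a Schlafen gene, was at least 40.6-fold higher, with liver ILC1s at -1.66, 2.02 and 4.69. Ifit1, an interferon-induced RNA sensor, was at 5.66, 5.01 and 3.37, at least 68.2-fold higher, and at -1.66, 6.08 and 5.32 in liver ILC1s. Ifit1 was the 1 gene past the threshold of 23 in an interferon list with a median of 0.72, and of the leave-one-out fits only that without spleen ILC1 library 3 kept it. The overlap in each case came from 1 liver ILC1 library, and the other two lay above the NK cells. Over all tested genes the liver ILC1 libraries lay beyond the NK libraries on the spleen ILC1 side in 2037 (17.1%). Since the NK libraries enter both comparisons, the position of the liver ILC1s describes the 92 genes and is no independent test.

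For all 92 genes the liver ILC1 mean was nearer to the spleen ILC1 mean than to the NK mean. Liver ILC1s went further from the NK cells than spleen ILC1s in 41 of the 65 higher genes and 19 of the 27 lower genes, and lay between in 24 and 8. The 92 genes were chosen by the distance between spleen ILC1s and NK cells, which partly sets these positions. Shares over all genes are not given for them, so these counts describe the 92 genes only. Set directly against liver ILC1s in a fit of the 9 control libraries, spleen ILC1s differed in 1 of 12767 genes at the adjusted threshold (0.00783%), with 580 at an unadjusted p under 0.05 (4.54%). That gene was Klra8, higher by 7.16 in spleen ILC1s (SE 0.81, adjusted p = 0.0475). The count was 0 without liver ILC1 library 1 or 3 or any 1 of the NK libraries, 3 without spleen ILC1 library 1, and 37 by DESeq2. Among the 65 higher genes 6 had an unadjusted p under 0.05 in this fit and 0 an adjusted one. Tnfsf10, for example, was lower in spleen than in liver ILC1s by 1.09 on the log2 scale (-1.09, unadjusted p = 0.0061) while above the NK cells. Among the 27 lower genes 9 had an unadjusted p under 0.05 and 1 an adjusted one.

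Transcripts of other cells were present in the spleen ILC1 libraries, those of B cells most of all in library 3. Erythroid genes went otherwise: Hba-a1 had 5, 2267 and 0 counts and Hbb-bs 0, 1631 and 0 in libraries 1, 2 and 3. B cell markers summed to 412 to 8473 CPM in spleen ILC1s, 236 to 250 in NK cells and 585 to 823 in liver ILC1s. Ms4a1, which encodes CD20, was at 5.96, 32.2 and 414 CPM in spleen ILC1 libraries 1, 2 and 3, and Cd74, the invariant chain of class II MHC, at 14.5, 477 and 2635. Library 3 was the highest of its group for all 12 B cell genes tested. Of these 12, 0 passed edgeR's adjusted threshold, all 12 had an unadjusted p under 0.05, and DESeq2 called 7. Without spleen ILC1 library 1 edgeR called 5. The class II gene H2-Ab1 was at 4.01, 7.18 and 9.51 against 0 counts in NK cells, at least 658-fold higher without passing (adjusted p = 0.0788).

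The genes Dtx1, Id3, Serpinb1a and Gpr15 were also highest in library 3, as were 3863 of all 11890 genes. Other genes past the threshold that were highest there included Gpr183, Gpr18, Gpr55, Slfn1, Slfn5, Dpp4 and Sept8. Of these, Gpr183 and Sept8 stayed past the threshold in all 6 leave-one-out fits. Without library 3 Dtx1 differed by 4.19 (adjusted p = 0.0241) and Id3 by 4.17 (adjusted p = 0.0889). Serpinb1a, a protease inhibitor, missed the threshold without it (adjusted p = 0.0551). In liver ILC1s Dtx1 and Id3 were above the NK range. Of the B cell genes there, Ms4a1, Blk, Iglc2 and Igkc were at 0, while H2-Ab1 was at 20.3, 8.36 and 1.32 CPM against 0 in NK cells, Pax5 at 5.83, 0 and 0, and the list's sum was above that of the NK cells. Serpinb1a was at 3.97, 5.33 and 7.0 in spleen ILC1s and 5.41, 3.63 and 2.60 in liver ILC1s against 0 counts in NK cells, at least 135-fold higher. The part of B cell RNA in the spleen values of these genes was not tested.

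Markers of further cell types reached smaller sums in spleen ILC1s than the B cell genes of library 3. Macrophage and monocyte genes summed to 9.48 to 656 CPM in spleen ILC1s, 0.157 to 2.03 in NK cells and 0 to 346 in liver ILC1s, hepatocyte genes to 31.6 to 190, 2.51 to 7.43 and 13.8 to 218, and endothelial genes to 78.6 to 304, 43.0 to 101 and 71.3 to 112. Erythroid and platelet genes ranged from 0.729 to 724 CPM in spleen ILC1s, 0.363 to 33.1 in NK cells and 0 to 2371 in liver ILC1s. Neutrophil and dendritic cell genes reached 92.1 to 366 CPM, against 28.1 to 39.0 in NK cells and 49.1 to 82.7 in liver ILC1s. In that list Ly6d held 0, 518 and 1647 counts in spleen ILC1 libraries 1, 2 and 3, rising in the order of Ms4a1 and Cd74. Every other untested member had at most 126 counts in a spleen library. A part of B cell RNA in this sum was not tested. Of these 5 lists 2, 3, 2, 0 and 1 hepatocyte, macrophage, endothelial, erythroid and neutrophil or dendritic genes were tested, and 0 passed. Mup3, Gp9, Elane and Clec9a had 0 counts in all 6 libraries.

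**Figure D5:**
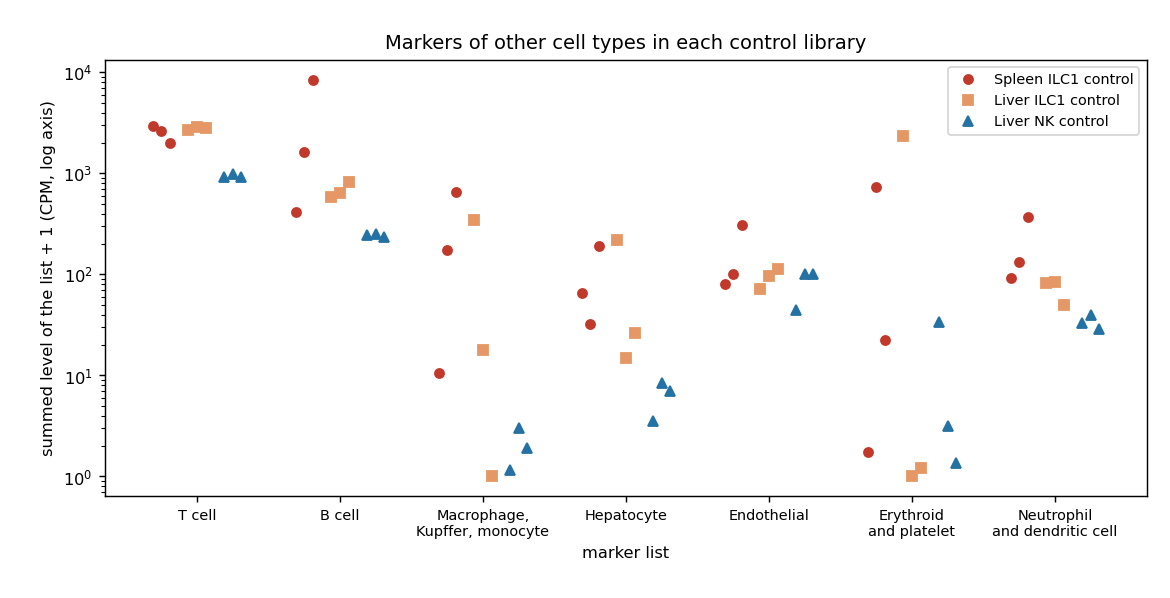
Summed level of marker genes of other cell types in CPM, with 1 added, on a log axis, in each control library of spleen ILC1s (red circles), liver ILC1s (orange squares) and liver NK cells (blue triangles). Spleen ILC1 library 3 has the highest B cell sum, 8473 CPM, against at most 250 in the NK cells, while T cell sums of both ILC1 groups lie between 1976 and 2962.

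Processes without any gene past the threshold were proliferation (27 tested, median -0.40), immediate early and heat shock genes (26, median -0.03), the Gimap GTPases of lymphocyte survival (8, median 0.33), survival and death genes (17, median 0.09), glycolysis and hypoxia (19, median 0.00) and the TGF-beta pathway (14, median 0.17). Over all genes 0.774% passed, so 0 calls in lists of 8 to 27 genes say little about these processes. Their unadjusted p was under 0.05 in 4, 2, 4, 2, 5 and 3 genes in that order, against 9.94% of all genes. The 4 Gimap genes were all higher in spleen ILC1s, and 7 of the 8 Gimap differences were above 0 and 1 below. Summed, the Gimap genes held 6594 to 8133 CPM in spleen ILC1s, 4367 to 5249 in NK cells and 8315 to 10389 in liver ILC1s. Bcl2, which protects lymphocytes from death, was at 9.81, 8.51 and 9.03 in spleen ILC1s against 8.90, 9.17 and 8.66 (0.31, adjusted p = 0.88). Gimap4 differed by 0.61 (adjusted p = 0.126) and Stmn1, a tubulin regulator of dividing cells, by -1.70 (adjusted p = 0.0999). Of 9 tested genes of ILC2s and ILC3s, 2 were higher (Tmem176a and Tmem176b) and 1 was lower (Klrg1), while Rora was at 1.64 and Gata3 at 0.39 without passing. The count of 3 became 1 without any 1 of the NK libraries and 2 without any 1 of the spleen libraries. Il17a, Il22, Il13 and Areg, the cytokines of those cells, had 0 counts in all 6 libraries.

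Named genes outside these lists completed the extremes. Gpr55, a receptor for lipids, was at 3.31, 4.41 and 4.64, at least 40.8-fold above NK cells, and Acoxl at 4.57, 4.04 and 3.44, at least 37.0-fold. Klhl30 was the reverse, with 6.02, 5.15 and 5.21 in NK cells, 3 counts in spleen ILC1s and a ratio of 314 in favour of NK cells (counting interval 107 to 1524, adjusted p = 0.00798). Rac3, a small GTPase, was lower by 3.70 on the log2 scale (-3.70, SE 0.47), Scimp, an adaptor protein, by 2.75 (-2.75, SE 0.32), Borcs7, which positions lysosomes, by 2.33 (-2.33, SE 0.32) and Plscr4 by 1.86 (-1.86, SE 0.29). In liver ILC1s Rac3 was at -1.66, -1.66 and -0.90, below the spleen ILC1s at 1.52, 1.86 and 1.40, while Plscr4 was at 5.25, 5.40 and 6.20, across the spleen range of 4.55 to 5.45.

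The same cell types were also sequenced from mice with RARα403, in libraries that the comparison of controls did not use. This comparison was added after the data were seen. With 5 libraries, leaving out liver NK RARa403 library 1, 6 of 12790 genes passed the threshold (0.0469%) and 941 had an unadjusted p under 0.05 (7.36%). Of the 91 genes past the threshold in control mice that could be tested there, 91 had the same direction, 71 an unadjusted p under 0.05 and 3 an adjusted one. Cd200r2 was too low to test there, at -1.71, 2.34 and -0.53 in RARα403 spleen ILC1s and -1.71 in every RARα403 NK library. The same direction was seen in 61.5% of all 11456 genes tested in both. With all 6 libraries 0 genes passed by edgeR, 466 had an unadjusted p under 0.05, and 88 of 90 genes had the same direction, the others being Slfn5 and Slfn1. Liver NK RARa403 library 1 had Klrg1 at -1.71, against 7.42 and 6.13 in libraries 2 and 3, and Itga1 at 7.60 against 2.35 and -1.08. Its Klra8, at 10.11, lay between the 9.87 and 10.73 of libraries 2 and 3. These genes were chosen after values were seen. The 2 genotypes share no library, and RARα403 was present in both groups of that comparison.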

How the data were processed

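Gene counts of 18 SMART-seq libraries in 6 groups of 3 were deposited by the authors as one table of whole-number counts, and the 9 control libraries enter here. Per the submitters' processing notes, fastp 0.23.0, HISAT2 2.1.0 with the mm10 build, and featureCounts (Subread 1.6.5) were used. Annotation version, strandedness and handling of multiply aligned reads were not given in the sources used here, so overlapping, antisense and near-identical genes are uncertain in level. Of 46078 gene IDs, 45229 were matched to a symbol and 849 were not. There were 0 columns that belonged to no sample.

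Genes were kept with filterByExpr (minimum count 10), libraries scaled by TMM, and the 6 libraries fitted with edgeR 4.0.16 (quasi-likelihood, no covariates) in R 4.3.3. P-values were adjusted by Benjamini-Hochberg over the 11890 genes kept, with a threshold of 0.05. Genes varied with a common biological coefficient of variation of 0.546 (prior degrees of freedom 4.39). Spleen and liver ILC1s were compared as a contrast in a fit of the 9 control libraries. Levels were computed as log2 CPM (2 prior counts). Intervals of count ratios are exact binomial at 95% and, like the floor of 3 counts, cover counting error only. The steps were tested on simulated data. The median over all genes of the difference in mean log2 CPM was 0.0045 with TMM, 0.017 with RLE and 0.054 with library totals alone.

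Genes are named by rule: among genes past the threshold whose libraries did not overlap and whose higher group had a mean of 3 log2 CPM or more, leaving out predicted, unnamed and pseudogenes, the 15 largest increases and decreases, those whose liver ILC1 libraries overlap the NK range, a fixed set always reported, and members of 31 gene lists. Members named with only their difference, the genes called in all leave-one-out fits, and B and T cell markers in CPM were chosen after values were seen. The comparison and the lists were chosen with earlier results of these data known. Alternatives were DESeq2 1.42.0, limma-voom (limma 3.58.1), RLE factors, no filter, more libraries, the replicate block, the opening number of the sample code, replicates 2 and 3 only, leaving out each library, and a threshold of 1 on the log2 fold change. Whether same-numbered libraries share a mouse is not given in the labels. Their correlations of 0.112, 0.0684 and 0.112 were not all above 0.1, the level set for every pair, so the main fit has no block. A shared mouse remains possible, as each spleen library correlated best with its own number. With the replicate block, 32 of the 58 named genes past the threshold stayed past it. The RARa403 libraries were examined after the data had been seen. A few genes covered by this rule were left unreported.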

Additional observations from a re-analysis of the deposited data

How the results depend on the processing

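The number of genes changed between spleen ILC1s and liver NK cells, 92, and the number of these whose liver ILC1 libraries lay beyond the NK libraries, 89, were 498 and 386 by DESeq2, 59 and 57 by limma-voom, 752 and 425 with no filter, 146 and 145 with the 9 control libraries, 46 and 46 with all 18, 154 and 151 with 17 (liver NK RARa403 library 1 left out), 8 and 8 with replicates 2 and 3 only and 49 and 46 at a log2 fold threshold of 1. RLE factors gave 93 and 90, and the opening number as a term 91 and 85. With the replicate block they were 56 and 51. The same-number correlations were 0.112, 0.0684 and 0.112, which were not all above 0.1, so the block was kept as an alternative. Each spleen library correlated best with its own number, library 3 of each control group had the Xist counts, and the sample codes of same-numbered libraries share their digits, and the labels do not say whether these share a mouse. With the block, 32 of the 58 named genes past the threshold stayed past it, and 26 had adjusted p-values from 0.0533 (Borcs7) to 0.138 (Il2): Borcs7, Prdm1, Cd3d, Tcrg-C2, Itga1, Rac3, Id3, Klra4, Gpr18, Sept8, Ifit1, Ccdc136, Klra10, Cd247, Tnfsf10, Plscr4, Tmem176a, Tmem176b, Ltb, Ifngr1, Clec2i, Slfn1, Gpr55, Cd226, Acoxl and Il2. Leaving out 1 library gave 20 to 95 and 20 to 75. Against liver ILC1s the count of 1 was 0 with 17 libraries, 0 with only the 6 libraries compared, 0 with the replicate block, 37 by DESeq2, 224 with no filter and 0 to 3 on leaving out 1 library. The cause of these changes was not tested. No direction changed among the 58 named genes past the threshold under any of these alternatives. These genes were chosen as past the threshold in libraries that the alternatives reuse, so a change of direction was unlikely from the start. Genes that did not pass changed sign: Gzmc to -0.94 by limma-voom, -0.92 with replicates 2 and 3 only and between -0.70 and 4.01 on leaving out 1 library. Bcl2 went to -0.13 with replicates 2 and 3 only and lay between -0.12 and 0.56 on leaving out 1 library. Cd69 went to -0.019 by limma-voom and -0.34 with replicates 2 and 3 only, and lay between -0.17 and 0.66 on leaving out 1 library, and Pecam1 between -0.025 and 0.59. Depth limits transcripts near 0.338 to 0.865 CPM, where 3 counts lie.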
